A study of Homo sapiens with 24 samples.

Results

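Abemaciclib was added to fulvestrant-treated MDA-MB-231 cells, and the combination was compared with fulvestrant alone. MDA-MB-231 is a human triple-negative breast cancer line with a mesenchymal phenotype, used here as a model of tumour cells without oestrogen receptor (ER). Cells of both groups had received fulvestrant, a selective ER degrader, at 5 nM for 5 days; the combination group had also received abemaciclib, an inhibitor of the cyclin-dependent kinases CDK4 and CDK6, at 500 nM for the same 5 days. The comparison takes in the 6 libraries that the labels assign to these 2 groups of this line, 3 per group, out of 24 libraries in the series. A second comparison, abemaciclib at 500 nM against the vehicle DMSO in the same line over the same 5 days, uses 6 other libraries and shares none with the first. It was therefore used as a repeat of the abemaciclib effect in a separate set of libraries. Expression was measured by 3′ RNA-seq, which counts reads near the polyadenylated end of transcripts. The replicates are cultures of 1 cell line, so that the values describe this line and not tumours. The study states that its RNA-seq in this line was done as 1 experiment, so the second comparison repeats the first in other libraries and not in another experiment.

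CDK4 and CDK6, once bound to D-type cyclins, phosphorylate the retinoblastoma protein Rb and its relatives. Phosphorylated Rb releases E2F transcription factors, which drive genes for DNA replication and nucleotide supply in late G1 and S phase; B-MYB and FOXM1 then drive the genes of mitosis. CDK4/6 inhibitors keep Rb in its repressive form and are known for arresting Rb-proficient cells in G1. In breast cancer they are given together with endocrine drugs such as fulvestrant, which acts through ER.

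The labelled cell line was first checked against its markers. ESR1, which encodes ER, had 0 counts in 5 of the 6 libraries and 3 counts in the third combination replicate, and PGR, the progesterone receptor, had 0 counts in all 6. A count of 0 allows a level of up to 3 counts, or 0.721 to 0.877 CPM in these libraries, for counting error only. CPM are counts per 1000000 counts of a library after TMM scaling. Of the mesenchymal markers, VIM was at 1682 ± 46.2 CPM (SD, n = 3) under fulvestrant and 1870 ± 63.5 CPM under the combination, and CD44 was at 259 ± 5.84 and 237 ± 4.15 CPM. ZEB1, AXL and CAV1 were also expressed, and SPARC was lower, at 17.7 ± 5.38 and 28.8 ± 2.80 CPM. Epithelial and luminal markers were not all absent. KRT8 was at 103 ± 6.73 and 106 ± 11.7 CPM, ERBB2 at 18.7 ± 4.76 and 27.9 ± 5.10 CPM, and CDH1, GATA3 and FOXA1 were between 3.89 and 10.2 CPM on average, whereas the splicing regulator ESRP1 and the transcription factor GRHL2 had 0 counts in the 6 libraries and EPCAM 0 to 6 counts. The apocrine genes PIP and MUCL1 and the hepatocyte gene ALB were at 0, and TFF1, SCGB2A2 and the immune, endothelial and stromal markers PTPRC, PECAM1 and LUM had at most 3 counts in a library.

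Library totals were 3420958 to 3519096 counts under fulvestrant and 3710834 to 4158762 counts under the combination, so the combination was sequenced slightly more deeply. Mitochondrially encoded genes took 8.73% to 9.244% of the counts under fulvestrant and 13.38% to 13.96% under the combination; their part in the other results was examined only by refitting without these genes. The first fulvestrant replicate stood apart from the other two. Over genes, its counts differed from those of replicates 2 and 3 with a chi-square per degree of freedom of 8.65 and 7.81, whereas all other replicate pairs of the 4 MDA-MB-231 groups lay between 2.96 and 6.05. The mitochondrial ribosomal RNA MT-RNR2, for example, was at 21840, 11390 and 12160 CPM in the 3 fulvestrant libraries. The counts of the gene lists are therefore also given without this library where they move.

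Adding abemaciclib to fulvestrant changed the level of many expressed genes. Of 11314 genes tested with edgeR's quasi-likelihood test, 4082 (36.1%) passed a Benjamini-Hochberg adjusted p of 0.05; this is what "called" means throughout. They comprised 1990 genes that were higher under the combination (17.6% of genes tested) and 2092 that were lower (18.5%). Large changes were mostly rises: 846 called genes were at least 2-fold higher and 459 at least 2-fold lower, and 222 and 53 were past 4-fold. The 3 libraries of one group lay wholly above or below the 3 of the other in 5183 genes (45.8%), and 3813 of these were called. The median log2 fold change of all genes tested was -0.0012, so that rises and falls are stated against a centre at 0. Without the first fulvestrant replicate, 3899 genes were called, 1967 higher and 1932 lower.

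The genes of the CDK4/6 and Rb pathway, the direct surroundings of the drug target, were mostly lower. Of 31 tested members out of 35 on the list, 18 fell (58.1%, against 18.5% of all genes tested) and 11 did not pass the test. The other 2 rose (6.45%, against 17.6% of all genes). The median log2 fold change was -0.71 (3 rose without the first fulvestrant replicate). CCND1, which encodes the cyclin D1 partner of CDK4/6, was at 574, 508 and 527 CPM under fulvestrant and at 919, 968 and 966 CPM under the combination. All 3 combination libraries lay above all 3 fulvestrant libraries, and the log2 fold change was 0.83 ± 0.084 (SE, adjusted p = 1.01e-10), a 1.77-fold rise. Exons of LTO1 overlap CCND1 on the other strand, and since no source used here gives the strand setting, reads of the pair cannot be told apart. The same holds for CDK4, RBL2, CCNE2, CCNA2, CDCA3, PLK1, GINS2, SAMHD1, ETV4, PRSS23, KDM5A, RPL22, SRPK2 and EIF5B. It also holds for DLEU2, FOXA1, KRT8 and ERBB2. Each of these overlaps exons of another named gene. Genes with an antisense or unnamed transcript on the other strand are affected too. Examples are CDK6, CDKN1A, CDKN2C, E2F8, RBL1, CDC45, VIM, CD44, L1CAM, GSN, SLC7A5, DUSP6, IFITM3 and FKBP4. CDK4 itself was lower by a small margin, at 261, 296 and 299 CPM against 233, 200 and 217 CPM, with a log2 fold change of -0.40 ± 0.10 (adjusted p = 0.00163). CDK6 did not pass the test (0.097 ± 0.13, adjusted p = 0.611), and its first fulvestrant library, at 199 CPM, was above the other two at 128 and 130 CPM. E2F7, an inhibitory E2F, was the second gene of the list that rose, from between 26.7 and 31.2 CPM to between 40.8 and 43.6 CPM. Of the 2 genes that rose, CCND1 alone was also called higher for abemaciclib against DMSO.

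Among the CDK inhibitors, none rose. CDKN2C, which encodes the CDK4/6 inhibitor p18, fell from 56.6, 61.8 and 60.2 CPM to 25.9, 19.1 and 30.6 CPM (log2 fold change -1.24 ± 0.18, adjusted p = 2.78e-07). CDKN1A, which encodes p21, fell from 26, 22 and 31.1 CPM to 11.9, 15.5 and 14.5 CPM (-0.91 ± 0.23, adjusted p = 0.00155). CDKN1B, which encodes p27, was at -0.41 ± 0.27 and did not pass the test (adjusted p = 0.252). CDKN2A and CDKN2B had 0 counts in all 6 libraries; this locus is known to be deleted in MDA-MB-231.

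RB1 was lower (-0.54 ± 0.16, adjusted p = 0.00654), with libraries at 49.1, 58.6 and 56.9 CPM under fulvestrant and 39.1, 44 and 29.8 CPM under the combination, and its call was lost without the third combination replicate. RBL1, the Rb relative p107, was also lower (-0.75 ± 0.23, adjusted p = 0.00811), a call lost without the second fulvestrant replicate. RBL2, which encodes p130, was at 0.79 ± 0.41 and did not pass the test (adjusted p = 0.129), although its groups did not overlap.

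Several transcription factors downstream of Rb fell. E2F1 was at 43.4, 57.8 and 52.2 CPM under fulvestrant and 26.5, 25.9 and 20.8 CPM under the combination (log2 fold change -1.07 ± 0.18, adjusted p = 8.23e-06). MYBL2, which encodes B-MYB, fell 3.90-fold, from between 305 and 344 CPM to between 72.4 and 93.7 CPM (-1.96 ± 0.11, adjusted p = 3.71e-18). The fall of E2F8 was 2.75-fold (-1.46 ± 0.34) and that of CCNE2, the cyclin E2 gene, 2.57-fold (-1.36 ± 0.25). In each of E2F1, MYBL2, E2F8 and CCNE2, the 3 combination libraries lay below the 3 fulvestrant libraries. The lowest member of the list was E2F2, at 3.51, 5.24 and 2.08 CPM against 15.3, 20.0 and 13.6 CPM.

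**Figure D1:**
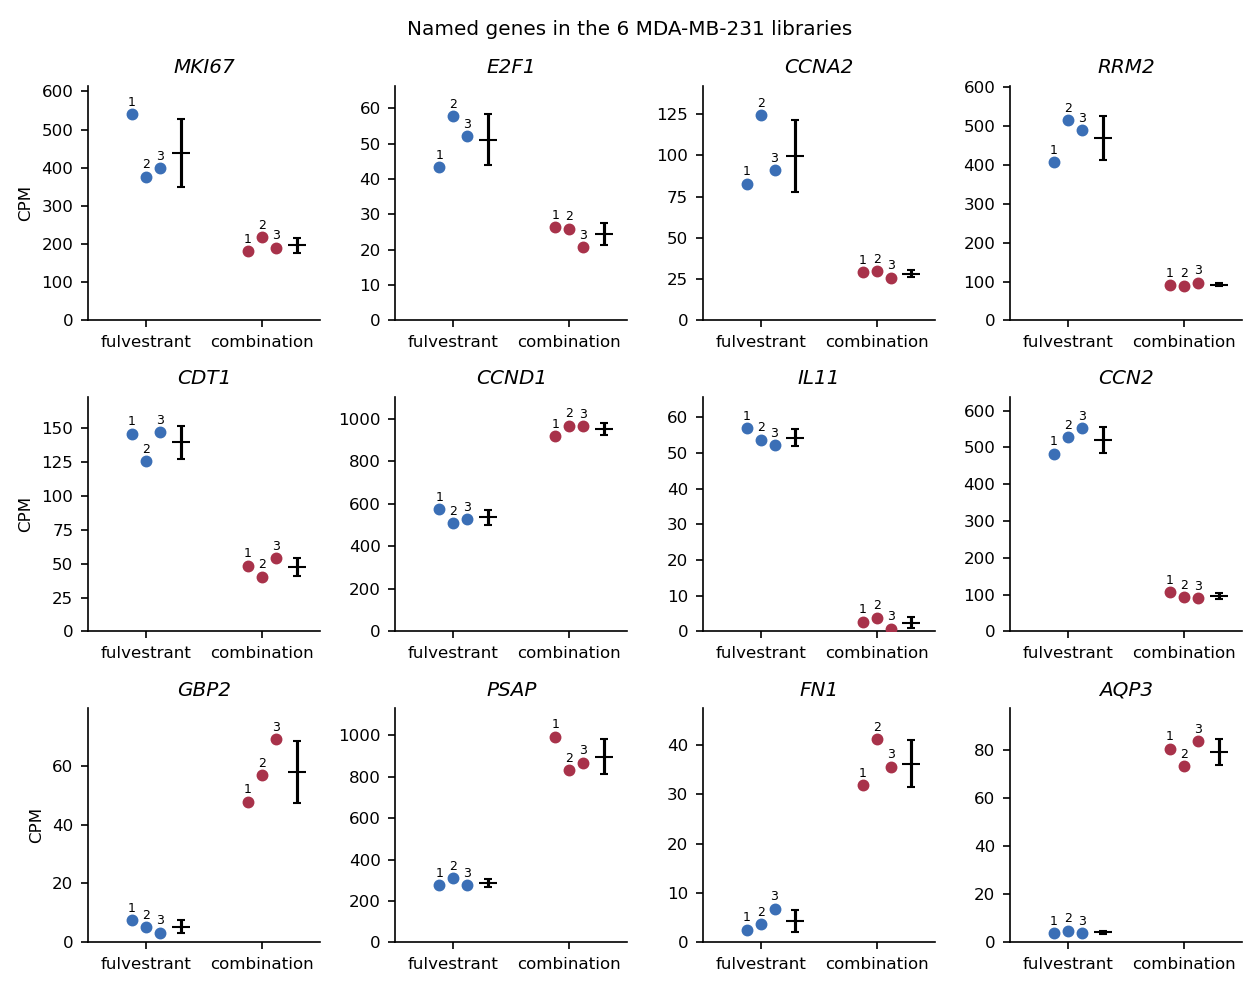
CPM of 12 named genes (y axis from 0, scale differs by gene) in the 3 fulvestrant and 3 combination libraries of MDA-MB-231; points are libraries with their replicate number, and the black mark with bars is the mean ± SD (n = 3). MKI67, E2F1, CCNA2, RRM2, CDT1, IL11 and CCN2 were lower under the combination. CCND1, GBP2, PSAP, FN1 and AQP3 were higher, and the groups do not overlap in any of the 12 genes. Of all genes tested, 45.8% had groups without overlap. This was also part of the rule that named IL11, CCN2, RRM2 and AQP3.

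DNA replication genes fell as a group. All 51 members of the list were tested; 38 fell (74.5%, against 18.5% of all genes tested) and none rose, with a median log2 fold change of -0.85, and 13 did not pass the test. Without the first fulvestrant replicate 38 fell and 1 rose. The largest falls among members of at least 10 CPM were in genes that load or activate the replicative helicase. ORC1, a subunit of the origin recognition complex, went from 17.6, 17.2 and 17.8 CPM to 4.32, 4.29 and 6.23 CPM, a 3.53-fold fall (adjusted p = 5.07e-06). CDC45, part of the active helicase, went from 23.4, 32.6 and 31.4 CPM to 10.8, 9.05 and 8.82 CPM (-1.61 ± 0.23, adjusted p = 4.18e-07). CDT1, which loads the MCM helicase onto origins, fell from 146, 126 and 147 CPM to 48.6, 40.5 and 54.0 CPM (-1.55 ± 0.13, adjusted p = 4.26e-13). The MCM2 subunit fell by 1.05 on the log2 scale and the sliding clamp PCNA by 1.30, each without overlap of the groups. ORC3, a further origin subunit, had the highest value of the list at 0.66 ± 0.33 and did not pass the test (adjusted p = 0.119).

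E2F factors bind DNA near the start of many replication genes, and the promoters of 2 members that fell are shown to place the E2F-type sequence. The 8-base forms TTTCCCGC, TTTGGCGC and TTTCGCGC were searched on both strands of RefSeq promoter windows of build GRCh38.p14 that run from 250 bases before the annotated start to 50 bases after it. The windows below were the 2 with the largest fall among called members that hold one and were open to printing. Not every chromosome was open to printing, here or for the other windows shown further below. Each window is given 5′ to 3′ on the strand of the gene, ends 30 bases after the start, and has the match in capitals. CDT1 lies on chromosome 16, window chr16:88803539-88803818 on the plus strand, with its match beginning at -35 relative to the start. GINS2, a subunit of the GINS helicase complex, lies on the same chromosome, window chr16:85688925-85689204 on the minus strand, with its match beginning at -31.
CDT1: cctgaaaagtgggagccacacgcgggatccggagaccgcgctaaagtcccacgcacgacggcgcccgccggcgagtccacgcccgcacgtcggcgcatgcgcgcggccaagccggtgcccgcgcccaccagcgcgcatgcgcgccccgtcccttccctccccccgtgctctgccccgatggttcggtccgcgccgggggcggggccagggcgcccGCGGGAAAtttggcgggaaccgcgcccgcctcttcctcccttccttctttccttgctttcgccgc
GINS2: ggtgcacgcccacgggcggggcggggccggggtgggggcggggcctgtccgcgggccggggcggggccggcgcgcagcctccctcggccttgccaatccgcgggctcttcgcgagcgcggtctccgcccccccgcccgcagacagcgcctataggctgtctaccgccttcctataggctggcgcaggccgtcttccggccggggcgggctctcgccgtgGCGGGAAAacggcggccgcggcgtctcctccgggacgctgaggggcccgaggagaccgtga

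In both windows the match is GCGGGAAA, the reverse complement of the first form, and it ends within 30 bases of the start. GINS2 was at 65.6, 59.5 and 60.8 CPM under fulvestrant and at 23.5, 26.7 and 20.2 CPM under the combination, with no overlap (log2 fold change -1.40 ± 0.166, adjusted p = 5.19e-09). Of the 51 replication genes, 44 had a window in the table, and 19 of these 44 (43.2%) held an E2F-type match. The share was 4.99% among 8684 protein-coding genes tested that had a window, and 2.79% over all 27305 windows of the table. Among protein-coding genes that fell it was 8.13%, and among those that rose it was 3.26%. These are descriptions of letters in a window and not of bound sites.

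Genes for deoxynucleotide supply followed the replication genes. Of 12 tested members, 9 fell (75.0%, against 18.5% of all genes tested) and 1 rose (8.33%, against 17.6%). The median was -0.70 (8 fell without the first fulvestrant replicate). RRM2, the regulated subunit of ribonucleotide reductase, fell 5.10-fold, from 406, 514 and 489 CPM to 90.2, 89.3 and 96.8 CPM (log2 fold change -2.35 ± 0.10, adjusted p = 6.31e-22). TK1, thymidine kinase, was at 142, 144 and 144 CPM against 59.7, 60.7 and 59.7 CPM, a 2.39-fold fall with little spread in either group. TYMS, thymidylate synthase, fell 2.42-fold (-1.28 ± 0.11), and exons of ENOSF1 overlap it on the other strand. The exception was SAMHD1, which degrades deoxynucleotides: it was at 0.39 ± 0.15 (adjusted p = 0.0368), its groups overlapped, and the call was lost without the third fulvestrant, the first combination or the second combination replicate.

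DNA repair and checkpoint genes, many of which are also E2F targets, fell in 23 of 32 tested members out of 34 (71.9%). The share over all genes tested was 18.5%. None rose, the median was -0.73, and 20 fell without the first fulvestrant replicate. WEE1, the kinase that restrains CDK1, went from 17.3, 28.3 and 21.9 CPM to 9.99, 4.29 and 4.41 CPM (-1.86 ± 0.31, adjusted p = 4.36e-06). RAD51AP1, which acts in homologous recombination, fell by 1.73 on the log2 scale, and RMI1, a subunit of the complex that dissolves recombination intermediates, by 1.56.

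Mitotic genes had the largest share of falls among the 23 lists. Of 83 tested members out of 84, 77 fell (92.8%, against 18.5% of all genes tested) and none rose, with a median of -0.99; without the first fulvestrant replicate 70 fell and 1 rose. The groups did not overlap in 75 of the 83 members, against 45.8% of all genes tested. MKI67, which encodes the proliferation marker Ki-67, was at 540, 377 and 399 CPM under fulvestrant and 181, 217 and 191 CPM under the combination, a 2.23-fold fall (-1.16 ± 0.11, adjusted p = 1.1e-11). SPC25, a kinetochore subunit, fell furthest, 5.00-fold, from 40.5, 31.5 and 35 CPM to 8.91, 5.00 and 7.53 CPM. CDCA3, a trigger of mitotic entry, fell 3.86-fold, and CCNA2, the cyclin A2 gene, fell 3.51-fold from between 83.0 and 124 CPM to between 25.9 and 29.8 CPM. The kinases AURKB and PLK1 fell by 1.76 and 1.73 on the log2 scale. CIT, citron kinase, stood alone with a positive value, 0.55 ± 0.225, which did not pass the test (adjusted p = 0.0523). In bulk samples, fewer cells in S phase and mitosis and less of these RNAs per cell cannot be told apart.

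Promoters of mitotic genes often carry the cell cycle homology region, the sequence through which the DREAM and B-MYB complexes act. It was searched as TTTGAA or TTCGAA on both strands of the same windows. Of the members open to printing, the 2 with the largest fall that hold it are shown. The windows again run up to 30 bases after the start, with matches in capitals. SPC25 lies on chromosome 2, window chr2:168890401-168890680 on the minus strand, with 2 matches, and CDCA3 on chromosome 12, window chr12:6851257-6851536 on the minus strand, with 1 match beginning at -3.
SPC25: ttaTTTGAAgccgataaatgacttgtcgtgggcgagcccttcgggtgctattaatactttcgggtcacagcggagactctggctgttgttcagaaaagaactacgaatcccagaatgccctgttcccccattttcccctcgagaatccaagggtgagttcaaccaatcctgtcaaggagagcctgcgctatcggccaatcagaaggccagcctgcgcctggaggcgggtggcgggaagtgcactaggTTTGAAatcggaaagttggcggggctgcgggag
CDCA3: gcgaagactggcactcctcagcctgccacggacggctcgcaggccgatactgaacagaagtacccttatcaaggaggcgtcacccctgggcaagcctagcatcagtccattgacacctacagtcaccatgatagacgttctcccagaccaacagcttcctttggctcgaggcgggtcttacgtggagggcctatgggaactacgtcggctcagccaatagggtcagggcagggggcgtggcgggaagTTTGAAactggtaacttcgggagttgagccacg

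Each of these windows has a TTTGAA match next to the start site. Of 71 mitotic genes with a window, 50 (70.4%) held the sequence, against 951 of 8684 protein-coding genes tested (11.0%) and 16.6% of all windows in the table. The share was 15.5% among protein-coding genes that fell and 9.13% among those that rose. The E2F-type forms were in 7.04% of the mitotic windows, and the cell cycle homology region in 4.55% of the replication windows.

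**Figure D2:**
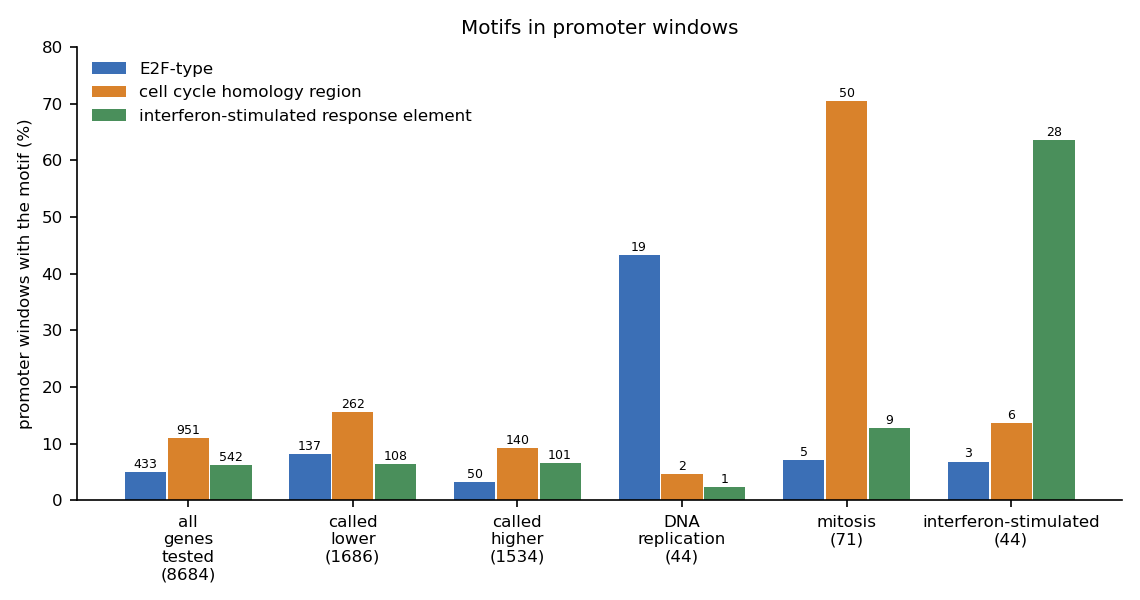
Share of RefSeq promoter windows (y axis, percent, from 0) that hold each of 3 motifs, for protein-coding genes tested, those called lower or higher under the combination, and 3 gene lists; the number of windows is in parentheses and the number with the motif is above each bar. The replication list stands out for the E2F-type motif (43.2%), the mitosis list for the cell cycle homology region (70.4%) and the interferon-stimulated list for its response element (63.6%).

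Chromatin genes that are made in S phase fell with them. Of 31 tested members, 28 fell (90.3%, against 18.5% of all genes tested) and none rose. The median was -0.93 (26 fell without the first fulvestrant replicate). LMNB1, which encodes lamin B1, fell 3.38-fold from 111, 100 and 122 CPM to 32.4, 37.1 and 28.8 CPM (adjusted p = 1.48e-13). H2AX, the histone variant phosphorylated at DNA breaks, fell 3.24-fold, and UHRF1, which recruits the maintenance methyltransferase to newly made DNA, fell 3.06-fold. DNMT1, that methyltransferase, fell by 0.66 on the log2 scale, from between 454 and 592 CPM to between 283 and 384 CPM. The replication-dependent histone genes H4C3 and H1-4 were among the 10 largest falls. H4C3 was at 3027, 1500 and 1556 CPM under fulvestrant and at 274, 280 and 346 CPM under the combination (-2.76 ± 0.15, adjusted p = 1.67e-18). H1-4 was at 67.6, 31.5 and 32.6 CPM and then at 2.7, 9.53 and 6.49 CPM (-2.79 ± 0.33). In both, the first fulvestrant library was well above the other two. Most messages of these genes end without a poly(A) tail, so a 3′ library primed on poly(A) sees a small and variable part of them.

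Ribosome biogenesis genes fell by a smaller amount. Of 47 tested members out of 48, 31 fell (66.0%, against 18.5% of all genes tested) and none rose. The median was -0.43 (28 fell and 1 rose without the first fulvestrant replicate). RRP9, a component of the small-subunit processome, fell 2.33-fold from 84.1, 83.0 and 85.7 CPM to 40.8, 33.3 and 34.2 CPM (adjusted p = 2.74e-09). BOP1 and RRP1, which act in large-subunit maturation, fell by 1.07 and 1.05 on the log2 scale. The ribosomal proteins themselves did not move as a group. Of 77 tested members, 12 fell (15.6%, against 18.5% of all genes) and 6 rose (7.79%, against 17.6%). The median was -0.029, with a range from -0.42 for RPL28 to 0.76 for RPL22. Without the first fulvestrant replicate 19 fell and 4 rose. Ribosomal protein genes have many processed pseudogenes, and how reads with several alignments were counted is not stated, so these values are uncertain.

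The second broad movement was a rise of interferon-stimulated and antigen presentation genes. Of 52 tested interferon-stimulated genes out of 66, 26 rose (50%, against 17.6% of all genes tested), 2 fell and 24 did not pass the test; the median was 0.65, and without the first fulvestrant replicate 25 rose and 3 fell. GBP2, an interferon-induced GTPase, rose 10.8-fold from 7.51, 5.15 and 3.26 CPM to 47.8, 56.7 and 69.0 CPM (log2 fold change 3.43 ± 0.27, adjusted p = 7.56e-14). DDX58, which encodes the RNA sensor RIG-I, was at 13.9, 16.6 and 14.5 CPM and then at 44.5, 38.3 and 53.2 CPM (1.59 ± 0.202, adjusted p = 2.17e-08). UBE2L6, the conjugating enzyme for ISG15, rose 3.27-fold, and IFITM3, which blocks viral entry, rose by 0.62 on the log2 scale. The genes that fell were HERC5, the ligase for ISG15, and IRF7, a transcription factor that amplifies type I interferon. HERC5 went from 21.4, 22.0 and 22.8 CPM to 5.67, 5.48 and 8.30 CPM (-1.76 ± 0.29, adjusted p = 5.44e-06), and IRF7 from 8.96, 10.3 and 6.82 CPM to 2.16, 0.714 and 0.779 CPM (-2.82 ± 0.523).

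Interferon-regulatory factors and STAT complexes act through the interferon-stimulated response element. Of the members open to printing, the 2 with the largest rise that hold the element in their window are shown. The element was searched as GAAANNGAA, where N is any base, on both strands. IFI44L, an interferon-induced gene, lies on chromosome 1, window chr1:78620198-78620477 on the plus strand, with 2 matches. GBP1, a relative of GBP2, lies on the same chromosome, window chr1:89065179-89065458 on the minus strand, with 1 match beginning at -126.
IFI44L: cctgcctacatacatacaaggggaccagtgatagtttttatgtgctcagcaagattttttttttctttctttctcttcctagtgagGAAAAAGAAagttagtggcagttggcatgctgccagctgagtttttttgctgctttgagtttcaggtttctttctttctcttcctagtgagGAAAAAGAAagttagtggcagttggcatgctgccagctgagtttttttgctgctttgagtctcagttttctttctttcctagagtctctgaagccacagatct
GBP1: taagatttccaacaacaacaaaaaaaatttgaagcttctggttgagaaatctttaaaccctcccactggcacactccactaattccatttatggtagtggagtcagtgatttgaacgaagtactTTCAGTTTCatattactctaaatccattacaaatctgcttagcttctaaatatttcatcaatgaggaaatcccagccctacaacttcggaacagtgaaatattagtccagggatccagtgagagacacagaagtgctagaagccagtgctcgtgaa

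GBP1 was at 13.6, 13.5 and 12.2 CPM under fulvestrant and at 42.9, 40.5 and 40.7 CPM under the combination (1.66 ± 0.21, adjusted p = 2.12e-08). IFI44L was close to the detection floor under fulvestrant, at 0.867, 0 and 0.296 CPM, and reached 8.37, 5.48 and 8.30 CPM under the combination (adjusted p = 2.58e-05). The 3 libraries of each group were apart in both genes. The element was in 28 of 44 interferon-stimulated genes with a window (63.6%), in 6.24% of protein-coding genes tested and in 8.29% of all windows. Its share was 6.58% among protein-coding genes that rose and 6.41% among those that fell.

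The machinery that displays peptides on MHC class I rose too. Of 17 tested members out of 20, 11 rose (64.7%, against 17.6% of all genes tested), 1 fell and 5 did not pass the test. The median was 0.93 (12 rose without the first fulvestrant replicate). PSMB9, a subunit of the immunoproteasome, rose 4.04-fold from 5.20, 4.00 and 3.85 CPM to 17.0, 20.5 and 15.6 CPM, with exons of PSMB8 on the other strand. HLA-B, a class I heavy chain, rose 2.81-fold from 49.42, 38.91 and 65.5 CPM to 158, 138 and 136 CPM (adjusted p = 9.83e-12). PSME1, the activator of the immunoproteasome, was at 91.9, 95.3 and 90.7 CPM and then at 245, 264 and 242 CPM, a 2.7-fold rise, with exons of EMC9 on the other strand. B2M, the light chain of all class I molecules, rose by 0.95 on the log2 scale. Reads from the related HLA genes can align to one another, so the value of HLA-B is uncertain. NLRC5, the transcriptional activator of class I genes, was at 0.46 ± 0.50 and did not pass the test (adjusted p = 0.503). CALR, an endoplasmic reticulum chaperone of class I loading, was the member that fell (-0.31 ± 0.09), and this call was lost without the third fulvestrant replicate.

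Secreted factors and feedback genes moved in both directions. IL11, a cytokine of the IL-6 family, had the largest fall of all genes named by size: 56.9, 53.8 and 52.2 CPM became 2.7, 3.81 and 0.778 CPM, a 21.8-fold fall (log2 fold change -4.44 ± 0.28, adjusted p = 9.4e-17). In the same list of inflammatory genes, 6 of 12 tested members out of 32 rose (50%, against 17.6% of all genes). IL11 was the 1 that fell (8.33%, against 18.5%), and 5 rose without the first fulvestrant replicate. CSF1, the macrophage growth factor, rose 3.75-fold and NFKB2, the p100 subunit of NF-kB, rose 2.02-fold. Among genes under AP-1 and mitogen-activated kinase control, 9 of 28 tested out of 29 rose and 9 fell (32.1% each, against 17.6% and 18.5% of all genes; median 0.016; 8 rose without the first fulvestrant replicate). PIM1, a survival kinase, fell 7.25-fold from between 17.7 and 21.7 CPM to between 1.91 and 4.05 CPM, and ETV4, an ETS factor, fell 3.06-fold. DUSP6, the phosphatase of ERK, rose from 143, 150 and 157 CPM to 399, 450 and 433 CPM (1.51 ± 0.0981, adjusted p = 2.58e-16), and EREG, epiregulin, rose 3.29-fold.

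p53 target genes gave no common direction. Of 21 tested members out of 26, 4 were higher (19.05%, against 17.6% of all genes) and 3 lower (14.3%, against 18.5%). The median was -0.035, close to the median of all genes. Without the first combination replicate the median was 0.12, and without the first fulvestrant replicate 6 rose. ZMAT3 rose 2.03-fold from 36.4, 34.0 and 33.5 CPM to 69.4, 70.5 and 71.1 CPM, SESN2 rose 2.06-fold and AEN fell 1.97-fold. MDA-MB-231 carries mutant p53.

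Lysosomal genes rose broadly. Of 53 tested members out of 62, 31 rose (58.5%, against 17.6% of all genes tested), 1 fell and 21 did not pass the test, with a median of 0.66 (29 rose without the first fulvestrant replicate). PSAP, the precursor of the saposins that help to degrade sphingolipids, rose 3.12-fold from 278, 309 and 277 CPM to 992, 830 and 868 CPM (1.64 ± 0.091, adjusted p = 1.73e-18). TPP1, a lysosomal peptidase, was at 16.2, 11.2 and 12.7 CPM and then at 45.4, 38.3 and 43.1 CPM, and SMPD1, acid sphingomyelinase, rose 2.66-fold. The membrane protein CD63 rose by 0.84 and the protease CTSD by 0.79 on the log2 scale. ATP6V0B, a subunit of the proton pump, was the member that fell, by 0.54 on the log2 scale. Of 6 tested complement genes out of 19, 4 rose (66.7%, against 17.6% of all genes) and none fell. Without the first fulvestrant replicate 3 rose. CD59, which protects cells from the membrane attack complex, was among the 4. It rose 2.39-fold from between 194 and 230 CPM to between 498 and 529 CPM.

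Lipid synthesis and amino acid stress genes moved less. Of 32 tested genes of sterol and fatty acid synthesis out of 34, 9 fell and 5 rose (28.1% and 15.6%, against 18.5% and 17.6% of all genes; median -0.22; 8 and 4 without the first fulvestrant replicate). ACAT2, a thiolase of sterol synthesis, fell 2.44-fold, with exons of SOD2 and TCP1 on the other strand, whereas the fatty acid enzymes SCD and ELOVL6 rose 1.78-fold and 1.81-fold. Targets of ATF4, the transcription factor of the amino acid response, were tested in 28 members out of 32. Of these, 12 fell (42.9%, against 18.5% of all genes) and 2 rose (7.14%, against 17.6%). The median was -0.41 (13 fell without the first fulvestrant replicate). SLC7A5, a transporter of large amino acids, fell from 215, 217 and 212 CPM to 81.8, 89.1 and 87.5 CPM (-1.32 ± 0.11, adjusted p = 2.17e-13). DDIT4, an inhibitor of mTORC1, rose against the rest of this list, from 2.89, 4.86 and 6.52 CPM to 24.0, 23.3 and 32.7 CPM (2.48 ± 0.29). Glycolytic and hypoxia genes rose in 10 and fell in 6 of 36 tested members out of 38 (27.8% and 16.7%, against 17.6% and 18.5% of all genes; median 0.12; 13 rose without the first fulvestrant replicate), with NDRG1 up 2.93-fold and PDK1, which holds pyruvate back from the mitochondrion, up 2.26-fold.

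Among called genes averaging at least 10 CPM over the 6 libraries, the largest rises included adhesion and epithelial genes that fulvestrant-treated cells hardly expressed. Such genes reach this level through the combination libraries alone, and rarer genes such as OAS1, at no more than 0.286 CPM under fulvestrant and 1.82 to 5.48 CPM under the combination, lie below it. ITGB4, the integrin of hemidesmosomes (GRCh38 chromosome 17, 75721328 to 75757818), was at 0.578, 1.43 and 0.593 CPM under fulvestrant and at 38.88, 30.24 and 39.96 CPM under the combination (log2 fold change 5.33 ± 0.41, adjusted p = 4.7e-14). L1CAM, a cell adhesion molecule first known from neurons, was at 0, 0.858 and 0.296 CPM and then at 21.9, 19.3 and 22.8 CPM (5.66 ± 0.55). AGR2, a protein disulphide isomerase of secretory epithelia, was at 0.289, 0 and 1.19 CPM and then at 20.5, 19.1 and 21.5 CPM (5.29 ± 0.47). The fulvestrant libraries of these 3 genes held 0 to 5 counts each, so the size of the fold is uncertain. Groups without overlap were a condition for naming a gene among the largest rises. AQP3, a water and glycerol channel of epithelia, was better covered and rose 18.9-fold, from 3.76, 4.86 and 3.85 CPM to 80.7, 73.3 and 83.8 CPM (4.24 ± 0.23, adjusted p = 9.05e-19). Also among the 10 largest rises at this level were CPA4, GALNT5, GSN, AL365181.2 and NMNAT2, with log2 fold changes of 4.55, 4.29, 3.83, 3.76 and 3.49.

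The list of epithelial keratins, junction and hemidesmosome genes as a whole was mixed. Of 29 tested members out of 47, 12 rose (41.4%, against 17.6% of all genes) and 6 fell (20.7%, against 18.5%). The other 11 did not pass the test. The median was 0.52 (11 rose without the first fulvestrant replicate). CLDN4, a tight junction claudin, rose 3.82-fold from between 3.18 and 8.00 CPM to between 19.3 and 23.8 CPM. KRT80 fell 2.66-fold, from between 26.6 and 33.5 CPM to between 8.91 and 15.9 CPM. CDH1, which encodes E-cadherin, stayed low, at 6.58 to 13.6 CPM against 4.59 to 8.82 CPM, with no call (-0.61 ± 0.36, adjusted p = 0.191).

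Mesenchymal, matrix and YAP target genes rose more often than they fell. Of 43 tested members out of 50, 18 rose (41.9%, against 17.6% of all genes tested), 8 fell (18.6%, close to the 18.5% of all genes) and 17 did not pass the test (median 0.36; 9 fell without the first fulvestrant replicate). Matrix genes were among those that rose: FN1, fibronectin, went from 2.60, 3.72 and 6.82 CPM to 31.9, 41.2 and 35.5 CPM (3.04 ± 0.30, adjusted p = 5.98e-11), and COL6A1, a collagen VI chain, rose 3.69-fold. YAP targets were among those that fell. CCN2, also known as CTGF, fell 5.41-fold, from 483, 527 and 552 CPM to 106, 93.3 and 89.5 CPM (-2.44 ± 0.10, adjusted p = 2.78e-22); exons of LINC01013 overlap it on the other strand. CCN1, also known as CYR61, fell from between 1007 and 1047 CPM to between 393 and 416 CPM (-1.35 ± 0.0948). The other genes among the 10 largest falls were the long non-coding RNA DLEU2, the tRNA methyltransferase subunit WDR4 and the metalloprotease ADAMTS6, with log2 fold changes of -2.41, -2.40 and -2.39.

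Genes known as ER targets in hormone-dependent cells were followed because the drug pair is used in ER-positive disease. In these cells, in which ESR1 was at or below the detection floor, 10 of 30 tested members out of 49 rose (33.3%, against 17.6% of all genes), 5 fell (16.7%, against 18.5%) and 15 did not pass the test, with a median of 0.24. TFF1 and PGR, 2 defining targets, were not tested for want of counts. IGFBP4, a binding protein of insulin-like growth factors, was at 292, 393 and 371 CPM and then at 974, 913 and 1002 CPM (1.45 ± 0.093, adjusted p = 2.09e-16). PRSS23, a serine protease, rose 2.79-fold, and FKBP4, a co-chaperone of steroid receptors, fell 2.73-fold. CCND1 and CTSD, described above, are also on this list. GPER1, a membrane receptor that binds oestrogen, was called (1.29 ± 0.50, adjusted p = 0.0399), but its libraries overlapped at 2.02, 1.43 and 6.82 CPM against 13.8, 4.76 and 6.75 CPM, and the call was lost without the first or second fulvestrant or the first combination replicate. KDM5A, a histone demethylase that binds Rb, was at 128, 88.4 and 75.6 CPM against 96.7, 116 and 116 CPM. It did not pass the test (0.17 ± 0.15, adjusted p = 0.391). Its log2 fold change lay between 0.039 and 0.43 in the fits without 1 library.

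Mitochondrially encoded genes rose in 11 of 15 members (73.3%, against 17.6% of all genes tested) and fell in 2 (13.3%, against 18.5%). The median was 0.40 (3 fell without the first fulvestrant replicate). MT-RNR2 was highest at 1.33 ± 0.12, and MT-ND6, the 1 protein gene on the light strand, was lowest at -1.61 ± 0.16, from 124, 118 and 126 CPM to 39.1, 46.2 and 34.8 CPM. In MT-RNR2 and MT-ATP8 the first fulvestrant library lay between the other fulvestrant libraries and the combination. Genes of intraflagellar transport and the cilium rose in 9 of 29 tested members out of 34 (31.0%, against 17.6% of all genes). None fell, and the median was 0.46 (8 rose without the first fulvestrant replicate). KIF3A, a motor of intraflagellar transport, was at 27.5, 7.72 and 8.60 CPM and then at 31.3, 41.4 and 27.8 CPM (1.20 ± 0.30), with the first fulvestrant library close to the combination libraries.

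**Figure D3:**
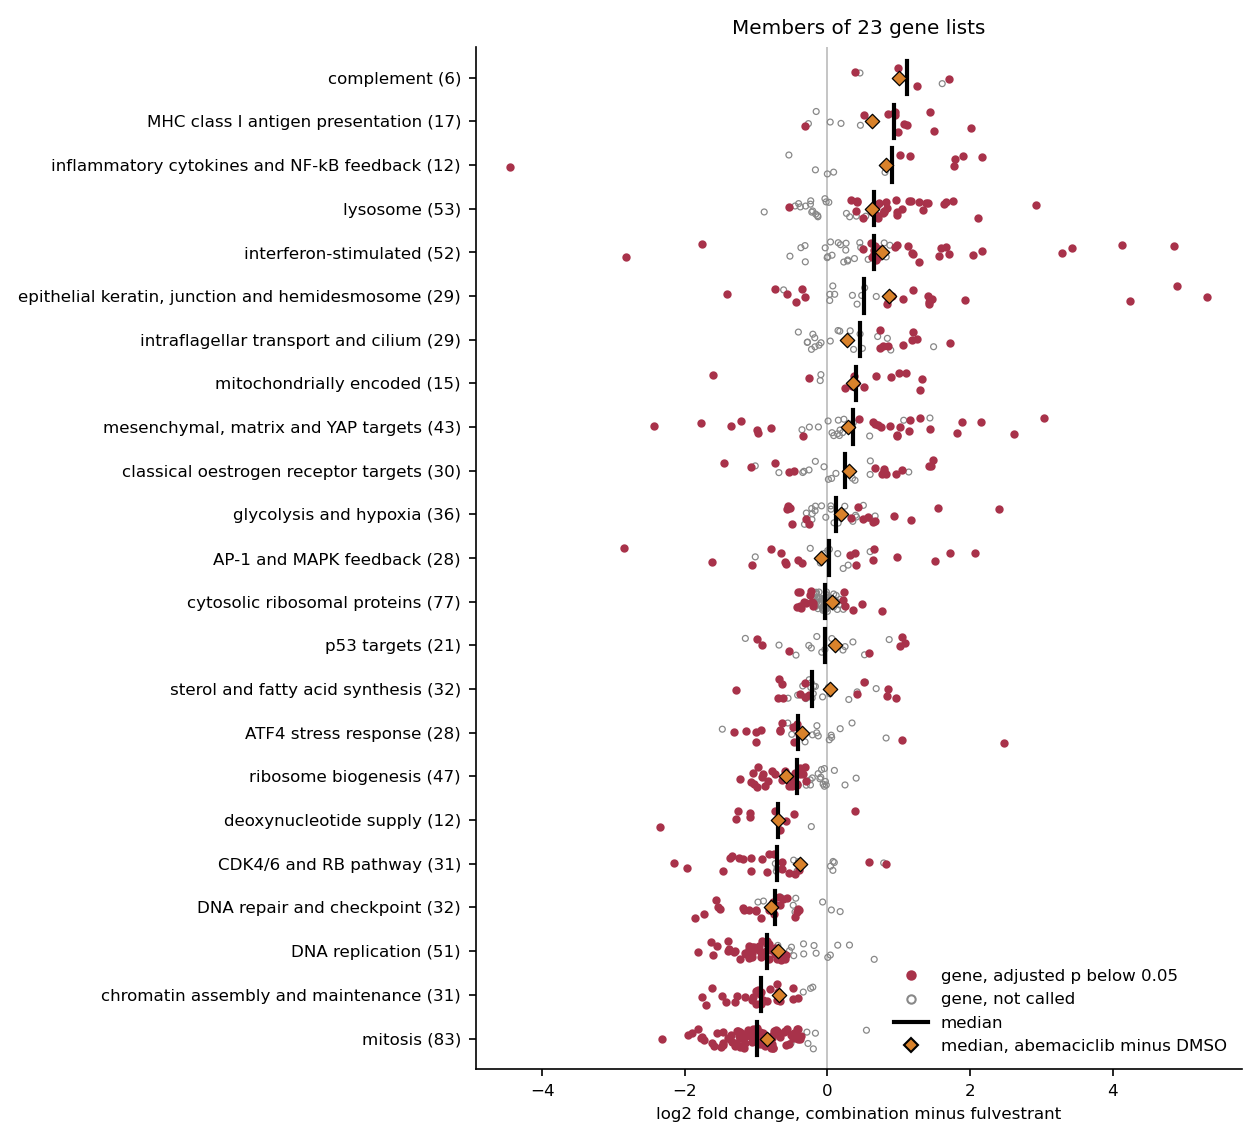
Log2 fold change, combination minus fulvestrant (x axis), of each tested member of 23 gene lists (rows, number tested in parentheses), with called genes filled, the list median as a black bar and the median for abemaciclib minus DMSO as a diamond. Mitosis (-0.99), chromatin (-0.93) and DNA replication (-0.85) had the lowest medians, and complement (1.12) and MHC class I (0.93) the highest.

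The abemaciclib effect was then set against its repeat without fulvestrant, in libraries that the first comparison did not use. Abemaciclib against DMSO called 3815 genes (33.7% of genes tested), 1908 higher (16.9%) and 1907 lower (16.9%). When each comparison was fitted on its own 6 libraries, 10457 genes were tested in both, 3848 were called for the combination against fulvestrant and 3759 for abemaciclib against DMSO. In this pair of fits, 2550 genes were called in both in the same direction, 1271 higher and 1279 lower, and 8 in opposite directions. These 2550 genes are 66.3% of the calls in the first comparison and 67.8% of those in the second. The log2 fold changes had a Pearson r of 0.787 and a Spearman rho of 0.746 across the 10457 genes, which are not independent replicates. Of 1173 called genes that changed at least 2-fold with fulvestrant present, 1146 had the same sign without it, and 906 (77.2%) were also called in that direction.

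**Figure D4:**
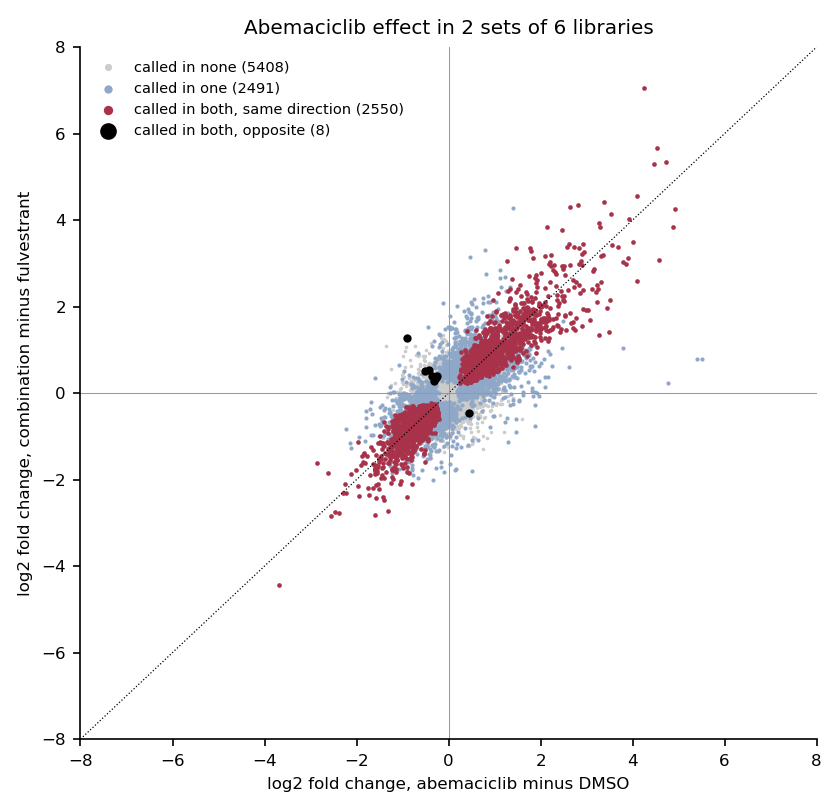
Log2 fold change of 10457 genes for abemaciclib minus DMSO (x axis) and for combination minus fulvestrant (y axis), each fitted on its own 6 libraries; the dotted line marks equal change and colours give the calls. The 2550 genes called in both in the same direction fill the lower left and upper right, and 8 genes called in opposite directions are in black.

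The genes called in one comparison were also displaced in the other. Genes called higher for abemaciclib against DMSO had a median log2 fold change of 0.85 there and 0.70 with fulvestrant present, and those called lower had -0.65 and -0.59. The reverse held for genes called with fulvestrant present, whose medians were 0.86 and -0.68 there and 0.71 and -0.51 without it. A list chosen by one comparison shows its larger values there by the choice alone, so these pairs do not order the 2 effects.

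Most list medians had the same sign in both comparisons. Sterol and fatty acid synthesis changed sign, from -0.22 with fulvestrant to 0.033 without it, where 4 members were called lower and 8 higher. So did p53 targets (-0.035 and 0.11), genes under AP-1 and mitogen-activated kinase control (0.016 and -0.087) and ribosomal proteins (-0.029 and 0.068). Of the 6 epithelial genes that fell with fulvestrant, 1 was called lower in both. In the fit of all 12 libraries, 1321 of all 11314 genes tested fell in both comparisons and 1288 rose in both. Falls in both were found in 69 of 83 mitotic, 33 of 51 replication and 29 of 47 ribosome biogenesis genes. They were also found in 24 of 31 chromatin, 21 of 32 repair and 7 of 12 deoxynucleotide genes. Rises in both were found in 30 of 53 lysosomal, 19 of 52 interferon-stimulated and 10 of 17 MHC class I genes. Among genes described above, CCND1 rose by 0.83 with fulvestrant and 0.81 without it, SPC25 fell by 2.32 and 2.31, GINS2 fell by 1.40 and 1.39 and HLA-B rose by 1.49 and 1.38, all on the log2 scale. The log2 fold changes of IL11 were -4.44 and -3.70, those of ITGB4 5.33 and 4.70, those of AQP3 4.24 and 4.91 and those of IGFBP4 1.45 and 1.97. Of the cilium genes, 2 were called higher and 2 lower for abemaciclib against DMSO, with medians of 0.46 and 0.27 with and without fulvestrant, and no member was called in the same direction in both. Ribosomal proteins were called higher in 21 and lower in 3 members without fulvestrant, and 6 were higher and 1 lower in both. CDKN2C, CDKN1A, CDK4 and RB1 were called with fulvestrant present and not without it. Without it their log2 fold changes were -0.33, -0.48, -0.15 and -0.38. The difference of the 2 effects passed the test in none of the 4, with adjusted p of 0.0943, 0.645, 0.517 and 0.837. RBL2 was called higher without fulvestrant (1.35 ± 0.44, adjusted p = 0.0159) and was not called with it. The difference of its 2 effects did not pass the test either (adjusted p = 0.773).

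The difference between the 2 effects was tested directly in the fit of all 12 libraries, coded as the effect with fulvestrant minus the effect without it. It passed the threshold in 14 of 11314 genes (0.124%), 12 with a higher and 2 with a lower value in the presence of fulvestrant, and 1298 genes had an unadjusted p below 0.05 (11.5%). DESeq2 called 65 genes for the same contrast. This count turned on single libraries. Without the first fulvestrant replicate it was 462, and without the third abemaciclib replicate 162; without the first abemaciclib or the second combination replicate it was 2. CHD1 and CCN2 were called in all 12 fits that left out 1 library.

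CCN2, the YAP target, fell in both settings and fell further with fulvestrant present, with log2 fold changes of -2.44 against -1.60 (difference -0.84 ± 0.14, adjusted p = 0.00442). It was at 485, 465 and 439 CPM under DMSO and 164, 132 and 161 CPM under abemaciclib; the first fulvestrant library lay within the DMSO range, and the combination libraries lay below those of abemaciclib alone. CHD1, a chromatin remodeller, fell under abemaciclib alone from 117, 125 and 118 CPM to 51.9, 50.9 and 66.2 CPM (-1.09 ± 0.13), and was at 114, 84.1 and 87.7 CPM and 87.5, 98.1 and 96.8 CPM with fulvestrant, where it did not pass the test (-0.016 ± 0.13, adjusted p = 0.938). CEP83, a centriole appendage protein needed for cilium assembly, went in opposite directions: it fell from 12.8, 13.3 and 15.7 CPM to 5.16, 9.15 and 7.66 CPM under abemaciclib alone and rose from 6.07, 7.44 and 8.89 CPM to 17.8, 17.9 and 18.2 CPM with fulvestrant (difference 2.19 ± 0.42, adjusted p = 0.00969). Exons of PLXNC1 overlap CEP83 on the other strand, and the test of the difference was lost without the third DMSO, the first abemaciclib or the second combination replicate.

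MAP1B and TTC3 rose in both settings and more with fulvestrant, by 1.67 against 0.88 and by 1.79 against 0.82 on the log2 scale. The histone variant gene H2AZ1 fell in both, by 1.04 against 0.48. SRPK2, a kinase of splicing factors, rose by 0.72 with fulvestrant and was at -0.31 without it (adjusted p = 0.112). In MT-ATP8, SRRM1, ANKRD11, AKAP12, EIF5B, H2AZ1, TTC3 and CHD1, the first fulvestrant library lay near the DMSO libraries while the other two lay apart from them; MT-ATP8, for example, was at 1905, 1017 and 993.5 CPM under fulvestrant and between 1769 and 1885 CPM under DMSO. The third abemaciclib library of MT-ATP8, at 2917 CPM, was likewise far from the others at 1594 and 1514 CPM. The part of these libraries in the differences was not tested beyond leaving each out.

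**Figure D5:**
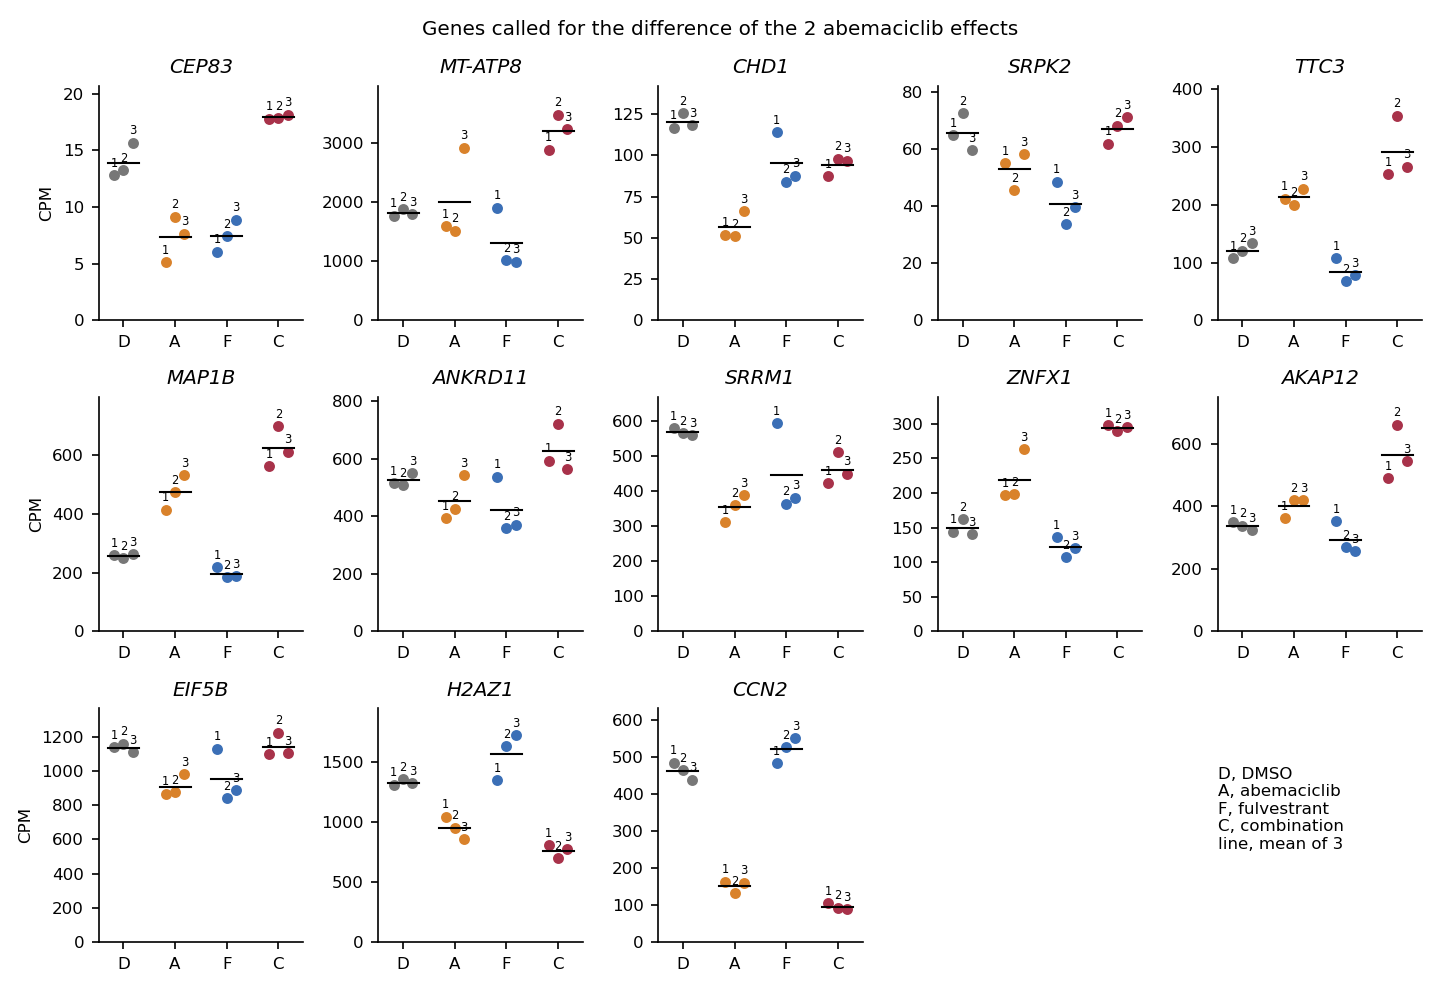
CPM (y axis from 0, scale differs by gene) of 13 of the 14 genes called for the difference between the 2 abemaciclib effects in all 12 MDA-MB-231 libraries; points are libraries with their replicate number and lines are means of 3. CEP83 falls from DMSO to abemaciclib and rises from fulvestrant to the combination, and in MT-ATP8, SRRM1 and ANKRD11 the first fulvestrant replicate is apart from the other two.

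Opposite calls in the 2 comparisons were found in 10 genes of the 12-library fit. Among the 5 largest by change with fulvestrant were AC067942.2 (1.58 and then -1.59 without fulvestrant), CEP83, KIAA1958 (-1.13 and 1.27) and MRFAP1L1 (0.52 and -0.44). Apart from CEP83, each of these lost its call for the combination against fulvestrant when 1 of several single libraries was left out, and AC067942.2, KIAA1958 and MRFAP1L1 had overlapping groups.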

How the data were processed

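Raw read counts per gene symbol were deposited by the authors for 59609 gene rows and 24 libraries. Per the methods of the study, the 3′ reads were trimmed with BBDuk, aligned to hg38 with STAR and counted with featureCounts on GENCODE annotation; strand setting, treatment of reads with several alignments and molecular identifiers are not given in the sources used here. The 12 MDA-MB-231 libraries, of at least 3280637 counts each, were fitted together in 4 groups with edgeR 4.0.16 in R 4.3.3 (filterByExpr, TMM scaling, quasi-likelihood test, Benjamini-Hochberg adjustment), and the 3 contrasts were combination minus fulvestrant, abemaciclib minus DMSO, and their difference. The pooled biological coefficient of variation was 13.4%. The ± after a log2 fold change is its SE, and folds are the fitted log2 fold changes on the linear scale.

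The members and gene lists were chosen with earlier results of these data known. By rule, the text named a set of pathway genes (CCND1, CDK4, CDK6, CDKN1A, CDKN1B, CDKN2C, RB1, RBL1, RBL2, E2F1, MKI67, ESR1, GPER1 and KDM5A). It also named the 10 largest rises and 10 largest falls among called genes that averaged 10 CPM or more without overlap of the groups, the 3 called members of each list with the largest change and the largest in the other direction at that level, and up to 5 genes in each direction called for the difference or 5 called in opposite directions. Any other gene given a value was chosen after values were seen. A few genes that met these rules are not reported here. Promoters are RefSeq sequences of GRCh38.p14; 84.1% of 10320 protein-coding genes tested had a window. Positions of genes are from GENCODE on GRCh38. The procedure was tested on simulated data of 10740 genes for combination against fulvestrant, with changes given only to genes of at least 10 CPM under fulvestrant. Changes of 1 on the log2 scale were called in 87% of 100 genes and of 0.5 in 26% of 50 genes. Far fewer genes were changed than were called in the data, so these rates need not hold there or at lower levels. Alternatives were DESeq2 1.42.0, other scaling, no filter on low counts, thinning to equal totals, a fit on only the groups compared, a test against 1.5-fold, the replicate block, and leaving out mitochondrial genes or each library in turn. Same-numbered fulvestrant and combination libraries did not deviate together, so numbers were not taken as pairs.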

Additional observations from a re-analysis of the deposited data

Results flagged for a closer look

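The abemaciclib effect differed between its 2 settings in 14 genes by the test of the difference itself (edgeR, 12 libraries). The values that follow, for 13 of them, are the log2 fold change with fulvestrant minus that without it. CEP83 had the largest at 2.19 (adjusted p = 0.00969), followed by MT-ATP8 at 1.15 (0.00969), CHD1 at 1.07 (0.00442), SRPK2 at 1.03 (0.0322) and TTC3 at 0.96 (0.00969). MAP1B was at 0.79 (0.00605), ANKRD11 at 0.78 (0.0322), SRRM1 at 0.73 (0.0475), ZNFX1 at 0.72 (0.041), AKAP12 at 0.71 (0.0372) and EIF5B at 0.58 (0.0378). The negative values were those of H2AZ1 at -0.56 (0.041) and CCN2 at -0.84 (0.00442). With the replicate block, CEP83, MT-ATP8, CHD1, TTC3, MAP1B and CCN2 were called. DESeq2 gave no call for CEP83, MT-ATP8, ANKRD11 or SRRM1. Of these, 3 did not pass its test and the other had no adjusted p from it. All 14 were among the 462 genes called without the first fulvestrant replicate.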

How the results depend on the processing

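The count of genes called for combination against fulvestrant lay between 3855 and 4080 under DESeq2, DESeq2 size factors in edgeR, no filter on low counts, only the groups compared, thinning and leaving out mitochondrial genes, and between 3396 and 3899 when 1 library was left out. Under a test against a minimum change of 1.5-fold it was 1071 (628 higher, 443 lower), with 888 (563 and 325) for abemaciclib against DMSO and 568 in both in the same direction; that test asks for a larger change by construction. Leaving out 1 library gave 3197 to 3481 for abemaciclib against DMSO and 2303 to 2459 for both in the same direction.

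With the replicate block the counts were 3940 and 3672 for the 2 comparisons and 2514 for both in the same direction; the numbers do not pair the libraries, since deviations of same-numbered fulvestrant and combination libraries correlated at -0.0427, -0.0251 and 0.0446. The count for the difference was the least stable: 6 with the replicate block, 65 with DESeq2 (42 higher, 23 lower), 132 without a filter (104 and 28), 0 against 1.5-fold, and 2 to 462 when 1 library was left out, the highest without the first fulvestrant replicate (328 and 134) and then without the third abemaciclib replicate (162; 122 and 40). Apart from these, it was 2 to 10 without 1 library. The cause was not tested, and only the groups compared could not be fitted for a difference that needs all 4 groups.

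Of 111 named genes, 106 were called; 26 of these lost the call under the test against 1.5-fold, 11 in at least 1 fit without 1 library and 9 under another alternative, and none changed direction. Uncalled values that changed sign were CHD1, at 0.0056 without a filter, 0.0087 after thinning, 0.0048 without mitochondrial genes and -0.099 to 0.14 without 1 library, and CDK6, at -0.014 to 0.35 without 1 library, the highest without the first fulvestrant replicate, where it passed the test. The median of the p53 targets lay between -0.089 and 0.12 without 1 library. Among the lists, falls in sterol synthesis were 5 without the second combination replicate, falls in ER targets 3 without the second fulvestrant replicate, and rises in complement 2 without the second combination replicate. Falls in ribosomal proteins were 7 without the third fulvestrant or the second combination replicate, and their rises 3 without the third combination replicate. Depth limited low genes: 17.6% of 3272 genes below 10 CPM were called (median SE 0.50), against 60.2% of 1756 genes from 100 CPM (median SE 0.11).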
